A study of Mus musculus with 8 samples.

Results

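The mitochondrial ribosomal protein genes were followed in Hepa-1c1c7 (Hepa-1) mouse hepatoma cells, an established liver tumour line, after exposure to hexavalent chromium. They were taken as all protein-coding genes of the count table whose symbol is Mrpl or Mrps followed by a digit, which gave 78 of 23403 genes. By symbol, 49 are named for the large subunit (Mrpl) and 29 for the small subunit (Mrps). RNA-seq covered 2 libraries of cells given 25 µM CrK2O4 in growth medium for 90 minutes and 2 libraries of control cells, whose labels say only that they were not treated and not which exposure scheme they belong to. FAIRE-seq, which recovers DNA poor in nucleosomes after formaldehyde crosslinking, had 1 library each of cells treated in the same way, of their control, of cells grown in 0.5 µM CrK2O4 for 20 passages, and of control cells passaged as often. All groups are the same cell line, and the labels name no genetic change in any of them.

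Mitochondrial ribosomes translate the mRNAs of the mitochondrial genome, all of which encode subunits of the oxidative phosphorylation complexes. The rRNAs of these ribosomes come from mitochondrial DNA, whereas the proteins are encoded in the nucleus, made on cytosolic ribosomes and imported. Some of the proteins have counterparts in bacterial ribosomes, and others occur only in mitochondria. The small subunit decodes the mRNA and the large subunit forms the peptide bond next to the exit tunnel. Since the genes are spread over the nuclear genome, here on 17 chromosomes, their output has to be matched, and binding sequences for the factors NRF1, GABP and YY1 have been described in promoters of genes for mitochondrial proteins.

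Promoter sequences are given first for Mrpl17 and Mrpl42, which were picked by their values. Mrpl17 was the only gene of the family that passed the main test. Mrpl42 had the most negative fold change of the family. Each run holds the 250 bases before the annotated start, 5′ to 3′ on the strand of the gene, from RefSeq with build GRCm38.p6. Mrpl17 lies on the minus strand of chromosome 7 from 105803782 to 105811087, and its run is chr7:105811088-105811337. Capitals mark an ETS/GABP motif (CCGGAAG) and an NRF1 motif (GCGCA, any base, then GCGC), which begins 49 bases before the start.
Mrpl17: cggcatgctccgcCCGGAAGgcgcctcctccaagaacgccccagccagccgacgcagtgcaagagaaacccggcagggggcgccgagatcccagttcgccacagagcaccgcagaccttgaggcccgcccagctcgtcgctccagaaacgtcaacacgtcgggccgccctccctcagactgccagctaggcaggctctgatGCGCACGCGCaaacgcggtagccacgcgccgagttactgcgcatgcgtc
Mrpl42 lies on the minus strand of chromosome 10 from 95480805 to 95501949, and its run is chr10:95501950-95502199. Capitals mark the reverse complement of CCAAT, and its YY1 motif lies just after the start and is shown further on.
Mrpl42: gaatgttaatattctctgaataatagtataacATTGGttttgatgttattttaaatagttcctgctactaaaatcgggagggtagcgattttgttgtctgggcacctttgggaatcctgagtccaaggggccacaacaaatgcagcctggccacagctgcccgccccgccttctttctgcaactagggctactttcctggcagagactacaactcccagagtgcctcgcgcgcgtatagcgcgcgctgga
The 300 base window of Mrpl17, which adds the 50 bases after the start, is 69.7% G and C with 35 CpG, and that of Mrpl42 is 51.3% with 17 CpG.

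The libraries held 32319676 to 37696116 counts. The 2 control libraries were alike across genes (Pearson r across genes of log2 CPM, counts per 1000000 after scaling, 0.9973), and the 2 treated libraries were less so (0.9735), where genes are not independent replicates. Treated replicate 2 took a TMM factor, the scaling that edgeR applies to library sizes, of 0.8967 against 1.029 to 1.044 in the others. Of the 11 hepatocyte and hepatoma markers, 9 passed the filter on low counts, all 9 had higher values in treated cells and 3 rose (Alb, Ttr and Apob), while Hnf4a, Apoa1 and H19, which also mark such cells, were at 15 counts or fewer in every library. Of the markers of other cell types, Ptprc (leukocytes) stood at 0 to 3 counts and Cdh5 (endothelium) at 0 in all 4 libraries, and the summed level of leukocyte markers that passed the filter was 7.80 and 25.4 CPM in treated and 12.8 and 13.4 CPM in control libraries. Pecam1, the one endothelial marker that passed the filter, rose from 0.489 and 0.486 CPM in controls to 1.77 and 2.24 CPM in treated libraries (log2 fold change 2.03, edgeR adjusted p = 0.04384). The 3 fibroblast markers that passed summed to 326 and 414 CPM in treated and 263 and 268 CPM in control libraries, mostly Col1a1, and 0 of them were called. The part of these differences in the values below was not tested. In RNA from whole cultures, fewer cells that express a gene and less RNA of it per cell cannot be told apart.

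All 78 genes were measured well, with at least 274 and at most 7038 counts in any library and more than 1 CPM in each, so that none was lost to the filter. A gene was called changed where the edgeR quasi-likelihood test gave a Benjamini-Hochberg adjusted p-value under 0.05 over the 13619 genes tested. By this rule 1 of the 78 genes fell (Mrpl17) and 0 rose, whereas 2.85% of all tested genes fell, 1.78% rose and 4.63% did either. At an unadjusted p under 0.05 in the same edgeR test there were 14 genes lower and 2 higher, against 15.1% and 15.6% of all tested genes, and DESeq2 called 3 lower and 0 higher (all genes 7.46% and 7.76%). At an edgeR adjusted p under 0.10 there were 6 lower and 0 higher, against 8.5% and 7.74% of all tested genes. The median log2 fold change of the family was -0.13, with quartiles of -0.32 and 0.07, beside -0.01 over all tested genes. The values were below 0 for 52 genes (66.7%) and above 0 for 26, or for 64 and 14 genes when libraries were scaled by size alone, which moved the median of all genes to -0.11. Both treated libraries lay below both controls in 37 genes (47.4%, all genes 34.0%) and above both in 9 (11.5%, all genes 32.2%). No test of the family as a whole was made, so these shares describe the 4 libraries.

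The differences were small. In 70 genes the log2 fold change was between -0.5 and 0.5, and the 95% interval of the fold change stayed within 1.5-fold for 35 genes and within 2-fold for 70. For these genes a change beyond such a bound is outside the interval. The median was -0.16 for the 49 Mrpl genes, with 31 below 0, and -0.12 for the 29 Mrps genes, with 21 below 0. At an unadjusted p under 0.05 in edgeR 11 Mrpl and 3 Mrps genes were lower, beside 15.1% of all tested genes. In each subunit 1 gene was higher, beside 15.6% of all tested genes. Both treated libraries lay below both controls in 51.0% and 41.4% (all genes 34.0%) and above both in 10.2% and 13.8% (all genes 32.2%). The 1 call was an Mrpl gene. The difference between the subunits was not tested.

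**Figure D1:**
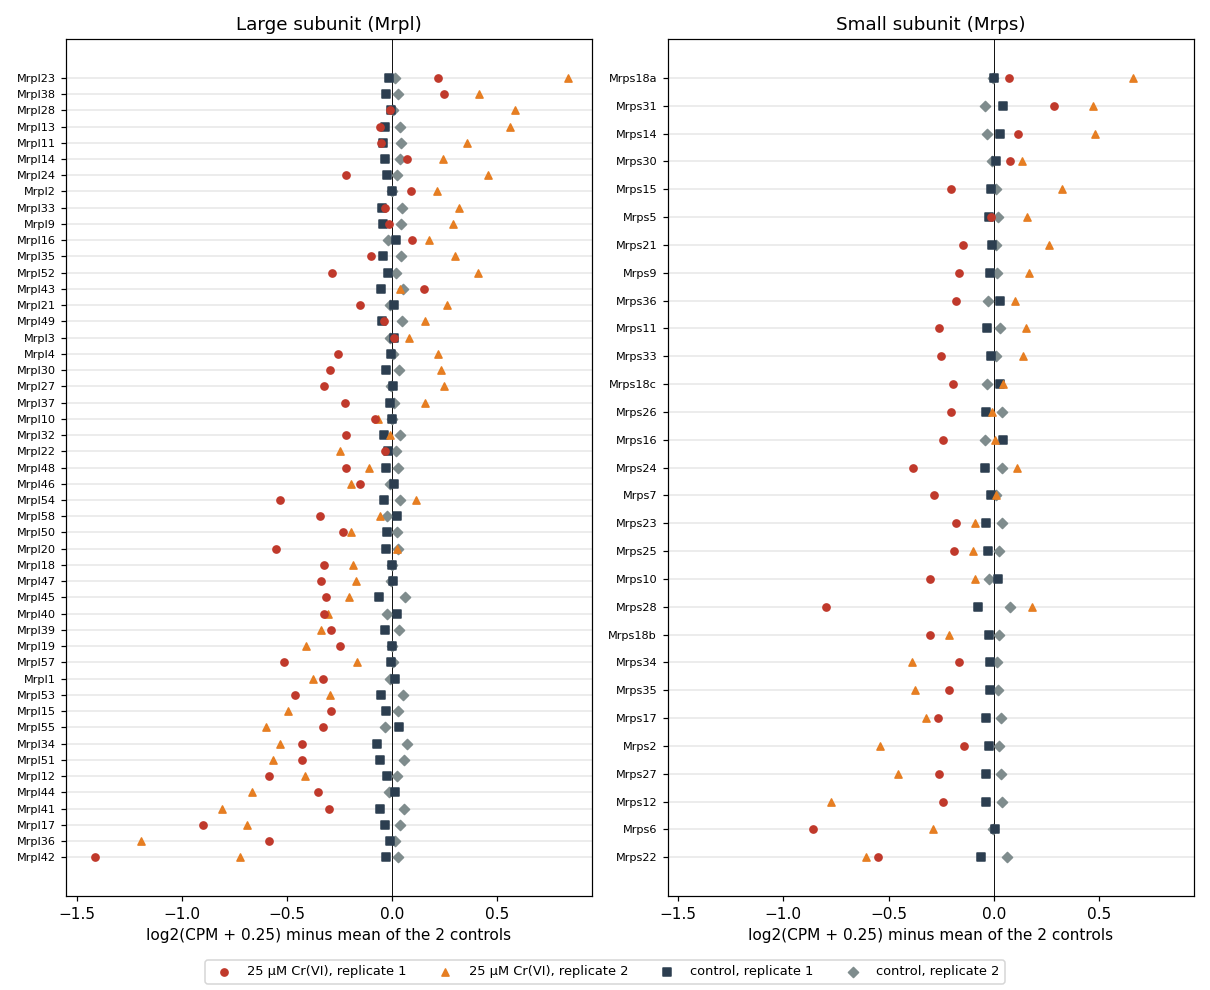
Each of the 78 genes is a row, ordered by its fitted fold change within the Mrpl (left) and Mrps (right) symbols. The horizontal axis is log2(CPM + 0.25) minus the mean of the 2 controls, circles and triangles are treated replicates 1 and 2, squares and diamonds are control replicates 1 and 2. The controls stay close to 0 in every row (differences of -0.09 to 0.15 between them), while the treated libraries spread from -1.41 to 0.84.

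Mrpl17, whose protein has a bacterial counterpart near the exit tunnel, fell. Its level was 51.5 and 59.5 CPM in treated replicates 1 and 2 and 93.9 and 98.7 CPM in control replicates 1 and 2. Both treated libraries were well below both controls, and the treated libraries lay closer to each other than to either control. The means were 55.5 ± 5.70 CPM (SD, n = 2) and 96.3 ± 3.37 CPM (SD, n = 2). The log2 fold change was -0.80 with a standard error of 0.12 (95% interval -1.13 to -0.46, edgeR adjusted p = 0.04864), a change of -42.4% by the fit. The call was kept with library size scaling alone (edgeR adjusted p = 0.04068), without a filter on low counts (0.03779) and in DESeq2 (0.004437). With upper-quartile scaling the edgeR adjusted p was 0.05121, and it was 0.2894 without control replicate 1 and 0.3686 without control replicate 2, with log2 fold changes of -0.85 and -0.78 that were little moved.

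Mrpl42, a protein of the large subunit found only in mitochondria, had the most negative value without passing the test. It stood at 32.8 and 53.0 CPM in treated libraries and at 85.9 and 89.4 CPM in controls. The groups did not overlap, but the treated libraries were far apart (42.9 ± 14.3 against 87.6 ± 2.48 CPM, SD, n = 2 each). The log2 fold change was -1.03 ± 0.25 (SE, 95% interval -1.71 to -0.35, edgeR adjusted p = 0.09094). DESeq2 called it, with an adjusted p of 0.005344.

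Mrpl36, the counterpart of a small zinc-binding protein of the bacterial large subunit, was at 34.8 and 22.7 CPM in treated and 51.8 and 52.7 CPM in control libraries. Here replicate 2 was the lower treated library, the reverse of Mrpl42. The log2 fold change was -0.86 ± 0.23 (SE, edgeR adjusted p = 0.1037, DESeq2 adjusted p = 0.0158). Mrps22, a mitochondria-specific protein of the small subunit, was at 14.9 and 14.3 CPM against 21.0 and 22.8 CPM. Its treated libraries nearly coincided, and its log2 fold change was -0.59 ± 0.14 (SE, edgeR adjusted p = 0.08829).

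Mrps6, which has a bacterial counterpart in the small subunit, was at 45.6 and 67.7 CPM against 83.1 and 82.6 CPM (log2 fold change -0.55 ± 0.22, SE, edgeR adjusted p = 0.1769). Its exons share 145 bases on the same strand with Slc5a3, so some of its counts may belong to either gene. The 5 most negative values thus belonged to Mrpl42, Mrpl36, Mrpl17, Mrps22 and Mrps6. In all of them both treated libraries lay below both controls, as in 34.0% of all tested genes. These genes were picked by their fold changes, so the separation of their groups adds no support. A further 3 genes had adjusted p-values under 0.10 in edgeR: Mrpl51 (0.08518), Mrpl12 (0.08597) and Mrpl34 (0.09837), with log2 fold changes of -0.50, -0.50 and -0.48. Mrpl12 was also chosen for its role, whereas Mrpl51 and Mrpl34 are named after their values were seen.

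**Figure D2:**
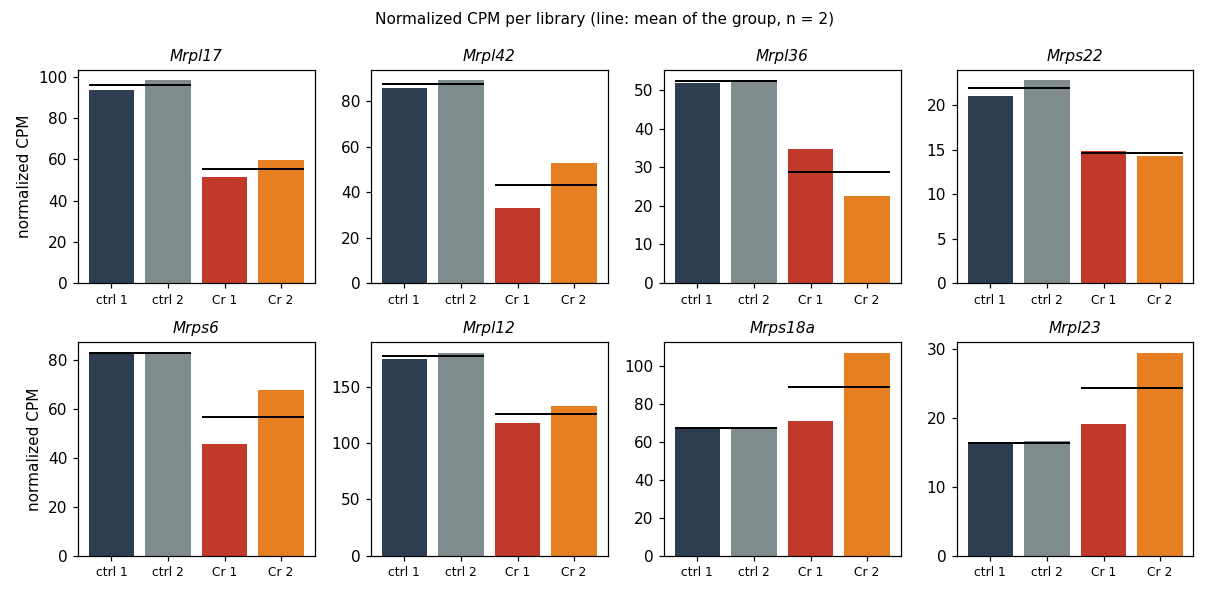
Normalized CPM (vertical axis, from 0) of 8 genes in the 2 control (ctrl) and 2 treated (Cr) libraries, with bars for libraries and black lines for group means. Mrpl17, Mrpl42, Mrpl36, Mrps22, Mrps6 and Mrpl12 have both treated bars below both control bars, and in Mrps18a and Mrpl23 the higher treated mean comes mainly from replicate 2.

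The 5 most positive values did not pass the test either. Mrpl23, whose bacterial counterpart sits at the rim of the exit tunnel, was at 19.2 and 29.5 CPM in treated and 16.2 and 16.6 CPM in control libraries. The log2 fold change was 0.57 ± 0.25 (SE, edgeR adjusted p = 0.2045), and 1 pseudogene of it is annotated, whose reads could be split with it. Mrps31, a mitochondria-specific protein of the small subunit, was at 24.9 and 28.3 CPM against 21.0 and 19.8 CPM (log2 fold change 0.39 ± 0.14, SE, edgeR adjusted p = 0.1589). Mrpl38, a mitochondria-specific protein of the large subunit, was at 89.2 and 100.2 CPM against 73.7 and 76.7 CPM (log2 fold change 0.33 ± 0.12, SE, edgeR adjusted p = 0.1472). In these 3 genes both treated libraries lay above both controls.

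The other high values rested on treated replicate 2. Mrpl28, with a bacterial counterpart in the large subunit, was at 66.4 CPM in treated replicate 1, just below the controls (66.7 and 67.0 CPM), and at 100.3 CPM in treated replicate 2 (log2 fold change 0.32, edgeR adjusted p = 0.3833). Mrps18a, described with its paralogs, was slightly above the controls in treated replicate 1 and far above them in replicate 2. The other genes with both treated libraries above both controls were Mrps18a, Mrpl2, Mrpl14, Mrpl16, Mrps14 and Mrps30, of which Mrps30 had a negative log2 fold change (-0.0071) with library size scaling alone.

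The mitochondrial ribosome carries 3 relatives of the bacterial protein S18, encoded by Mrps18a, Mrps18b and Mrps18c, of which the first is found in the large subunit in spite of its name. Mrps18a was at 70.9 and 107.0 CPM in treated and 67.5 and 67.3 CPM in control libraries (log2 fold change 0.40 ± 0.22, SE, edgeR adjusted p = 0.2898). Mrps18b was at 83.0 and 88.4 CPM against 100.7 and 104.0 CPM (-0.26 ± 0.10, edgeR adjusted p = 0.1855), with 141 bases of exon under an opposite-strand gene. Mrps18c was at 19.8 and 23.4 CPM against 23.2 and 22.2 CPM (-0.07 ± 0.15, edgeR adjusted p = 0.7813). The 3 paralogs thus had values of different sign, and no difference passed the test.

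Among the small-subunit genes chosen for their role, Mrps12, the counterpart of a bacterial protein of the decoding centre, was at 17.5 and 12.0 CPM in treated and 20.1 and 21.2 CPM in control libraries (log2 fold change -0.49, edgeR adjusted p = 0.2262). Mrps7, which belongs to the head of the subunit, was at 80.1 and 98.5 CPM against 96.9 and 98.5 CPM (-0.13, edgeR adjusted p = 0.5636). Treated replicate 2 of Mrps7 was level with the controls and replicate 1 lay below them. Mrps16 was at 18.8 and 22.3 CPM against 22.9 and 21.5 CPM (-0.11, edgeR adjusted p = 0.6471), with overlapping groups. Mrps35, a mitochondria-specific protein, was at 34.3 and 30.7 CPM against 39.3 and 40.4 CPM, both treated libraries below the controls (-0.29, edgeR adjusted p = 0.196).

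In the large subunit, Mrpl12, the stalk protein that contacts translation factors, was at 118 and 133 CPM in treated and 174 and 180 CPM in control libraries. It was the most abundant gene of the family per length, and its groups were clearly apart (log2 fold change -0.50 ± 0.12, SE, edgeR adjusted p = 0.08597). Mrpl11, which lies at the base of the same stalk, was at 45.2 and 60.2 CPM against 45.5 and 48.3 CPM, with overlapping groups (0.17, edgeR adjusted p = 0.5556). The difference between the 2 stalk genes was not tested.

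Mrpl44, a protein with an RNase III fold, was at 49.4 and 39.6 CPM against 63.7 and 62.3 CPM (log2 fold change -0.50, edgeR adjusted p = 0.1193). Mrpl3, the counterpart of a bacterial protein near the peptidyl transferase centre, was at 57.9 and 60.9 CPM against 58.0 and 57.1 CPM, with values of all 4 libraries close together (0.05, edgeR adjusted p = 0.7909). Mrpl58, a peptidyl-tRNA hydrolase built into the large subunit that can release stalled peptides, was at 32.1 and 39.2 CPM against 41.5 and 40.1 CPM (-0.19, edgeR adjusted p = 0.417).

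The 2 treated libraries differed from each other more than the 2 controls did. The treated pair was farther apart than the control pair in 71 of the 78 genes. The median absolute difference between the 2 libraries was 0.23 on the log2 scale in treated cells and 0.05 in controls (all tested genes 0.36 and 0.06). Treated replicate 2 was above replicate 1 in 58 genes. Against the mean of the controls, the family's median was -0.24 in treated replicate 1 and 0.00 (-0.002) in treated replicate 2. Replicate 1 was below both controls in 63 genes and above both in 10, while replicate 2 was below both in 37 and above both in 36. After TMM scaling, the lean of the family to lower values thus lay in treated replicate 1. As a share of all counts, without this scaling, the family held 0.352% and 0.36% in treated replicates 1 and 2. The shares were 0.416% and 0.425% in control replicates 1 and 2, so on that scale both treated libraries were lower. Without treated replicate 1 the median log2 fold change was 0.01 (0.0083), with 38 genes below 0, and without treated replicate 2 it was -0.24, with 67 below 0. The edgeR calls in these fits, in which the lone treated library is assumed to vary like the controls, were 31 lower and 31 higher without treated replicate 1 (all genes 39.4% and 38.1%) and 57 lower and 5 higher without treated replicate 2 (all genes 34.7% and 32.5%).

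This difference between the treated libraries went with exon length across genes, where shorter genes were higher in replicate 2 (Spearman rho -0.32 over 13568 genes and -0.22 over the 78, points that share the same 4 libraries). For control replicate 2 minus control replicate 1 the rho was -0.19 over 13568 genes and -0.05 over the 78. The 39 shorter genes of the family, split at 1484.5 bases of exon, had medians of -0.24 and 0.02 in treated replicates 1 and 2, and the 39 longer ones -0.22 and -0.07. The fold change itself had a rho of -0.02 with length over the 78 genes. The part of length in the values of the family was not tested beyond this.

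On the scale of CPM per kilobase of exon, averaged over treated and control libraries, which allows different genes to be compared, the family spanned a ratio of 37.4 between its highest and lowest mean level over the 4 libraries, with a median of 32.1. The highest was Mrpl12, at 120 and 135 in treated and 177 and 183 CPM per kilobase in control libraries. Mrpl13, which has a bacterial counterpart, followed at 117 and 179 against 118 and 124, so that in treated replicate 2 it stood above Mrpl12. Mrpl52, a mitochondria-specific protein, was at 82.6 and 133.7 against 99.3 and 102. In the controls alone the order below Mrpl12 was different, with Mrpl42 second (mean 127), then Mrpl13 (121), Mrps6 (106) and Mrpl52 (101). The lowest was Mrpl1, a protein of the stalk that flanks the exit site, at 3.67 and 3.55 against 4.67 and 4.59, followed by Mrpl48 (5.62 and 6.06 against 6.42 and 6.67) and Mrpl41 (6.19 and 4.32 against 7.34 and 7.95). Mrpl41 and Mrpl48 were in different order in treated replicate 2 and in the other 3 libraries, and in the controls Mrpl35 (mean 7.11) and Mrpl15 (7.50) also lay below Mrpl41 (7.64). The 3 lowest genes have long annotated exon sets (2423 to 5052 bases), and with the longest transcript in place of all exons the ratio was 28.2.

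**Figure D3:**
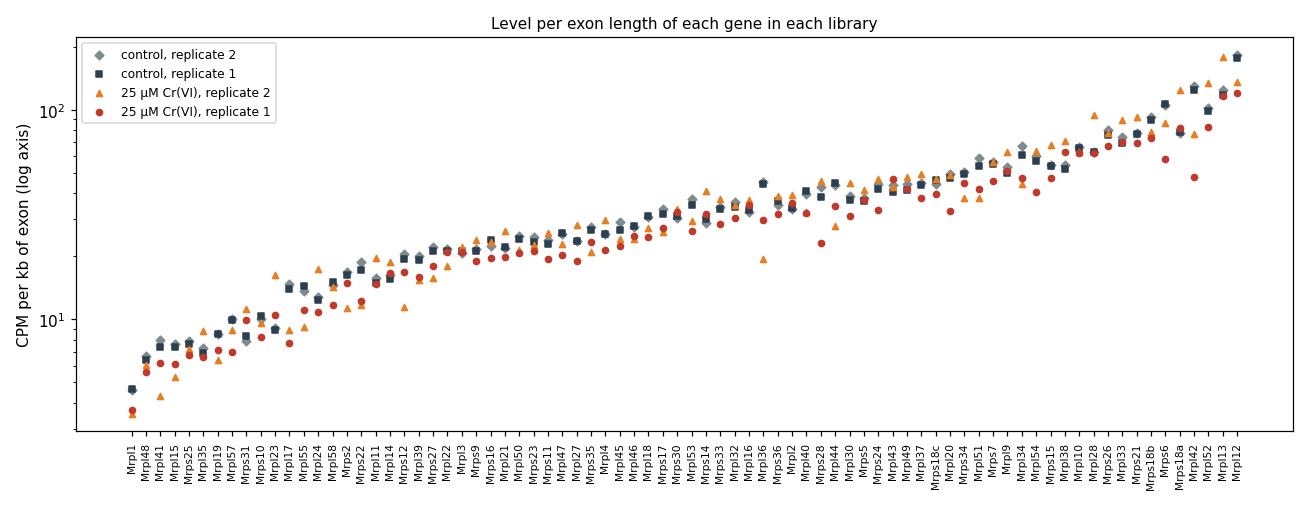
The vertical axis is CPM per kilobase of exon on a log scale, and the 78 genes are ordered from the lowest (Mrpl1) to the highest mean (Mrpl12), with 1 symbol per library. Most genes lie around the median of 32.1, and the symbols of the treated libraries leave the controls farthest in Mrpl42 and Mrpl36.

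Many of the genes share their start region with a neighbour. In 24 of the 78 (30.8%) an opposite-strand gene begins within 1000 bases upstream, against 11.5% of 20437 protein-coding genes. The latter include genes below the filter on low counts, which all 78 passed. The part of expression in this difference was not tested. Among the nearest neighbours, 22 were tested and 0 were called by edgeR, beside 4.63% of all tested genes. The 22 include Mrpl46 and Mrps11, which are each other's neighbour. Log2 fold changes of the 22 ran from -1.24 (Eme2, 33 bases from Mrps34) to 1.00 (Fau, a cytosolic ribosomal protein gene 192 bases from Mrpl49). Of the 22, 11 had the opposite sign to their Mrp partner. Mrpl36, one of the 5 lowest values, faces Ndufs6, a subunit of complex I, across 21 bases, and Ndufs6 was at 74.9 and 113 CPM in treated and 77.6 and 81.9 CPM in control libraries (0.24, edgeR adjusted p = 0.5096). Mrps12 faces Sars2, the mitochondrial seryl-tRNA synthetase, across 136 bases, and both had values of the same size (-0.49 and -0.48). In 17 genes of the family, Mrpl49, Mrps18b and Mrps27 of these pairs among them, exon sequence is shared with a gene on the opposite strand. The use of strand in counting is not given in the sources used here. Counts of the 17 may therefore hold reads of the overlapping gene.

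Promoter windows of 300 bases, 250 before and 50 after the start, were found in RefSeq for 69 of the genes, with 75 windows in all, and 9 genes had none. They were set beside the 13492 windows of tested genes, as a description without a test. An ETS/GABP motif (CCGGAAG, either strand) was present in 34.7% of the windows of the family and 16.8% of those of tested genes. An NRF1 motif (GCGCA, any base, then GCGC) was present in 17.3% and 9.2%, and a YY1 motif (AAGATGGCG) in 10.7% and 2.8%. The NRF1 letters searched first, with T as the central base, were present in 4.0% and 1.9%, and the wider motif was chosen after that result was seen. For comparison, CCAAT was present in 40.0% and 38.6%, TATAAA in 6.7% and 7.8% and an AP-1 motif (TGANTCA) in 4.0% and 5.8%. Over all 32851 RefSeq windows the shares were 8.9% (ETS/GABP), 4.6% (NRF1) and 1.4% (YY1). The median window held 21 CpG in the family and 19 in tested genes. The genes that carried these motifs had values of either sign. Mrpl17, Mrpl34, Mrpl51 and Mrps22 (all below 0) and Mrps18a (above 0) have an ETS/GABP match. An NRF1 match is present in Mrpl17, Mrpl12 and Mrpl44 (all below 0) and in Mrpl14 (0.16). Other genes with a match are not listed.

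**Figure D4:**
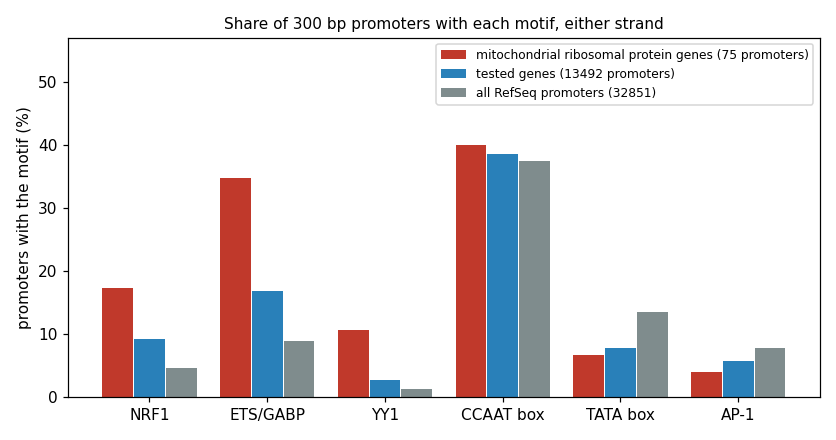
Share of 300 base promoters (vertical axis, percent, from 0) that hold each motif on either strand, for the family (75 promoters), tested genes (13492) and all RefSeq promoters (32851). ETS/GABP, NRF1 and YY1 bars are highest in the family (34.7%, 17.3% and 10.7%), while the CCAAT bars are nearly level (40.0%, 38.6% and 37.4%).

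The YY1 matches are shown with up to 10 bases on either side, since they lie at a like place in most of the genes. Each line is on the strand of the gene, with the motif in capitals, and CGCCATCTT is the same motif on the opposite strand (RefSeq, GRCm38.p6).
Mrpl35 (chr6:71823743-71823771, minus strand): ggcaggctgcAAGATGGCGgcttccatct
Mrpl36 (chr13:73330968-73330996, plus strand): cgtgaccttaCGCCATCTTtcttcctggc
Mrpl37 (chr4:107066822-107066850, minus strand): tgcacgggcaAAGATGGCGgcgtccaggt
Mrpl42 (chr10:95501904-95501932, minus strand): agattgaagcAAGATGGCGagcgcgcggt
Mrps11 (chr7:78783013-78783041, plus strand): ctacgggcgcCGCCATCTTtctgtcttcc
Mrps18a (chr17:46111005-46111033, plus strand): ggtgcgttccAAGATGGCGgccctcaggg
Mrps24 (chr11:5707652-5707675, minus strand): gcgccggcccAAGATGGCGtggtc
Mrps27 (chr13:99344790-99344818, plus strand): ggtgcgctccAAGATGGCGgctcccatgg
In 6 of these 8 windows the motif starts 12 to 37 bases after the annotated start on the gene's own strand. The Mrpl36 window lies inside the gene, before another annotated start. The 21 bases between Mrpl36 and Ndufs6 were measured from the first base of the gene, chr13:73328503, and not from that start. In Mrpl35, Mrps18a, Mrps24 and Mrps27 the ATG inside it is the annotated start codon of that gene, and in the Mrps11 window it is the start codon of Mrpl46 on the other strand. Mrpl42 (-1.03), Mrpl36 (-0.86) and Mrps18a (0.40) are all among these genes and lie at both ends of the range of log2 fold changes.

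FAIRE peaks, the places where MACS found more signal in the treated library than in its control, were found at few of these genes. Of the 2945 peaks at 25 µM, some lay with their centre within 1000 bases of an annotated start of 3 of the 78 genes (3.85%, against 1.13% of protein-coding genes). Of the 860 peaks at 0.5 µM this held at 1 gene (1.28% against 0.95%). The protein-coding genes again include genes below the filter on low counts, which all 78 passed. With 1 library per condition there was no replicate check. Mrpl46 and Mrps11 share a peak, chr7:78782934-78783139, of 206 bases with a MACS score of 50.28, which lies 52 and 94 bases from their starts and covers 156 bases of exon of Mrpl46. The 41 bases between both starts, chr7:78783090-78783130 on the plus strand, lie inside it and are shown as the core of the shared promoter.
Mrpl46 and Mrps11: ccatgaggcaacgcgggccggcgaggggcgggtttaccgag
Mrpl46 was at 25.7 and 25.0 CPM in treated and 28.8 and 28.4 CPM in control libraries, both treated libraries slightly lower (-0.17, edgeR adjusted p = 0.3784). Mrps11 was at 20.4 and 27.2 CPM against 23.9 and 25.0 CPM, with overlapping groups (-0.04, edgeR adjusted p = 0.9059).

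The third gene at 25 µM was Mrpl53, with a peak of 128 bases and a score of 52.8, centred 244 bases from the start over intron and coding sequence of the second exon (chr6:83109288-83109415, plus strand).
Mrpl53: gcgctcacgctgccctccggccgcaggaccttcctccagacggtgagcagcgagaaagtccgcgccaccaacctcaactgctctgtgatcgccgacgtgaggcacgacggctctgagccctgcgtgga
It was at 16.3 and 18.4 CPM in treated and 21.7 and 23.4 CPM in control libraries (-0.38, edgeR adjusted p = 0.1713), and part of its exon sequence is shared with Ccdc142 on the same strand. Both peaks at 25 µM within 1000 bases of these starts had scores under 60, close to the lowest score in the list. At 0.5 µM the peak at Mrpl4 (chr9:21002428-21003155, 728 bases, score 72.76) lay 54 bases from the nearest of its annotated starts. That start lies inside the gene, whose first base is chr9:21001252 on the plus strand, upstream of the peak. Mrpl4, with a bacterial counterpart in the large subunit, was at 62.8 and 87.5 CPM at 25 µM and 74.8 and 75.3 CPM in control libraries (0.00, edgeR adjusted p = 0.998), and RNA-seq at 0.5 µM was not analysed here. No relation of peaks to RNA levels was tested.

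Most other genes of the same pathway also had values below 0. Of 74 companion genes found in the table, 73 were tested. Of these, 49 had values below 0 (67.1%, all tested genes 50.4%) and 24 above. EdgeR called 0 in either direction, beside 4.63% of all tested genes. At an unadjusted p under 0.05 there were 13 lower and 3 higher in edgeR, and DESeq2 called 4 lower and 1 higher, where all tested genes had the shares 15.1% and 15.6% (edgeR, unadjusted) and 7.46% and 7.76% (DESeq2). The median log2 fold change was -0.16. The mitochondrial ribosomal proteins with other symbols, Dap3, Ptcd3, Chchd1, Aurkaip1 and Gadd45gip1, ranged from -0.24 (Gadd45gip1) to 0.17 (Aurkaip1) with edgeR adjusted p-values of 0.3449 to 0.9586. The median was -0.16 for 15 translation and mRNA-binding factors (11 below 0) and for 20 assembly and rRNA modification genes (13 below 0).

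The mitochondrial aminoacyl-tRNA synthetases and amidotransferase subunits, which charge the tRNAs used by these ribosomes, stood lower still, with a median of -0.48 over 20 genes, 16 of them below 0. Lars2, the leucyl-tRNA synthetase, was at 1260 and 919 CPM in treated and 2036 and 2119 CPM in control libraries (-0.93, edgeR adjusted p = 0.09124). Without scaling by length, the next highest of the list, Iars2, was at 107 and 99.3 CPM against 145 and 143 CPM. The source of the high Lars2 counts was not tested. Mars2 and Nars2, the methionyl and asparaginyl enzymes, had log2 fold changes of -1.08 and -1.004 (edgeR adjusted p = 0.08021 and 0.07191). Lars2, Mars2 and Nars2 are named because DESeq2 called them, and the difference between synthetases and ribosomal proteins was not tested.

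Among nuclear regulators, the median over 13 genes was 0.03. Ppargc1a, a coactivator of mitochondrial biogenesis, was at 30.4 and 19.6 CPM in treated and 43.7 and 42.6 CPM in control libraries, clearly apart (-0.78, edgeR adjusted p = 0.1232, DESeq2 adjusted p = 0.0366). Gabpb1, a subunit of GABP, was at 43.8 and 74.95 CPM against 35.4 and 34.0 CPM (0.77, edgeR adjusted p = 0.1569). Yy1 had a value of 0.36 (edgeR adjusted p = 0.1341), and Nrf1, Gabpa and Tfam had values of -0.12, 0.05 and 0.03. Mtg2, a GTPase of large-subunit assembly, had the highest value of the companions (34.6 and 24.9 against 16.2 and 15.1 CPM, log2 fold change 0.93, edgeR adjusted p = 0.07833).

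Set beside these, the 72 cytosolic ribosomal protein genes had a median of 0.69, all 72 above 0. Their medians were 0.33 and 0.96 in treated replicates 1 and 2. EdgeR called 0 of them (all tested genes 4.63% in either direction). At an unadjusted p under 0.05 in edgeR 35 were higher (all tested genes 15.6%), and DESeq2 called 34 higher (7.76%). The 80 oxidative phosphorylation subunits that were tested had a median of 0.18, 61 of them above 0, with 0 called by edgeR. At an unadjusted p under 0.05 in edgeR 6 were higher and 1 lower (all tested genes 15.6% and 15.1%). DESeq2 called 2 higher and 0 lower (all tested genes 7.76% and 7.46%). The mitochondrial ribosomal proteins summed to 3420 and 4012 CPM in treated and 3990 and 4097 CPM in control libraries, whereas the cytosolic ones summed to 60525 and 95420 CPM against 46838 and 48181 CPM. The difference between the lists was not tested, and mitochondrially encoded genes were not analysed here.

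**Figure D5:**
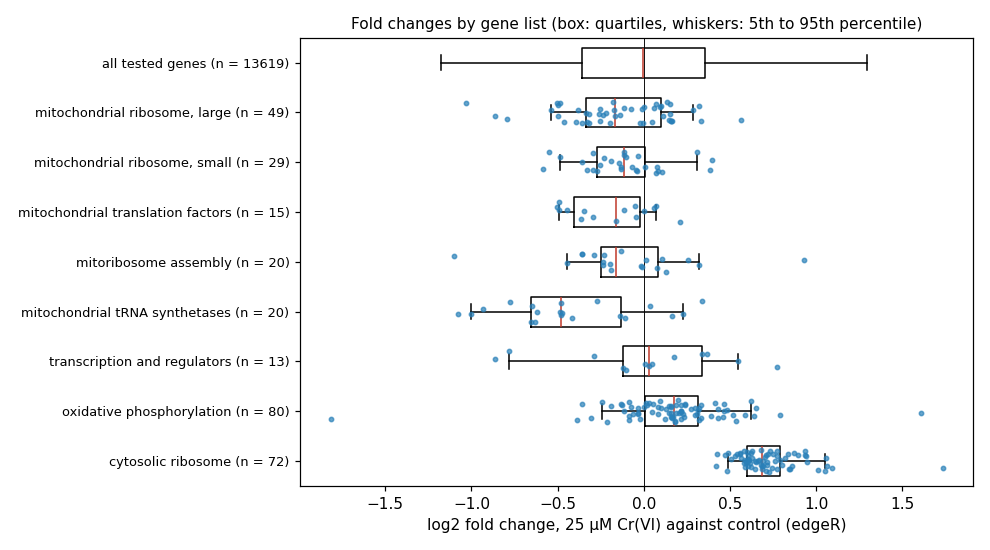
The horizontal axis is the edgeR log2 fold change, 25 µM against control. Each point is a gene, boxes give quartiles with the median in red and whiskers the 5th to 95th percentile. The mitochondrial ribosome lists (medians -0.16 and -0.12) lie left of the oxidative phosphorylation (0.18) and cytosolic ribosome (0.69) lists, and the tRNA synthetases (-0.48) lie farthest left.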

How the data were processed

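RNA counts per Entrez gene, as deposited and without normalization, were made by the authors from poly-A RNA libraries aligned to mm10 with TopHat; the counting tool, its annotation and its use of strand are not given in the sources used here. The peak score was made by the authors with BWA and MACS at default settings, and is a −log10 p-value multiplied by 10, from 1 treated library set against 1 control; the lists give no depth. Libraries held 32319676 to 37696116 counts. Whether replicates came from separate cultures is not stated, so p-values measure the spread between these libraries, which may be technical. The members and the gene lists were chosen with earlier results of these data known.

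Counts were tested with edgeR 4.0.16 in R 4.3.3 (TMM, filterByExpr, quasi-likelihood, two-sided, Benjamini-Hochberg adjustment, no block), which kept 13619 genes. CPM are counts per 1000000 TMM-scaled counts, and log2 ratios per library used log2(CPM + 0.25). Standard errors came from the fold change and the square root of F. Named genes were those past the threshold, the 5 largest rises and falls, the 3 highest and lowest levels, genes chosen for their role and genes with a FAIRE peak at the start; any other gene is named with its values already known. Alternatives were scaling by library size or upper quartile, no filter, DESeq2 1.42.0, a replicate block, each library left out, an adjusted p of 0.10, and for peaks other windows and scores. Gene starts, exons and sequences came from RefSeq GRCm38.p6, the same assembly as mm10. NRF1 was searched with a core motif picked after a first search. Scripts were tested on simulated counts.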

Additional observations from a re-analysis of the deposited data

How the results depend on the processing

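Replicate numbers are shared by name only (correlation of paired deviations 0.09), so the replicate block is given here alone. Genes of the family called lower numbered 1 in the reported test, 0 with upper-quartile scaling, 3 with DESeq2, 4 with the replicate block (all genes 11.5% lower and 10.3% higher), 6 at an adjusted p of 0.10 and 0 to 57 with a library left out; genes called higher numbered 0, and 0 to 31 with a library left out. Companion genes called higher numbered 0, but 1 with DESeq2, 2 with the block, 1 at 0.10 and 0 to 17 with a library left out; those called lower numbered 0, but 4, 5, 4 and 0 to 38. The high counts came without treated replicate 1 (31 lower and 31 higher, beside 39.4% and 38.1% of all tested genes) and without treated replicate 2 (57 and 5, beside 34.7% and 32.5%), where the lone treated library is assumed to vary like the controls. The median log2 fold change was -0.25 with library size alone, under which the median of all genes moved to -0.11, -0.11 with upper-quartile scaling and -0.24 to 0.01 with a library left out. Of the 78 genes, the sign turned in 12 with library size alone, 3 with upper-quartile scaling, 2 without a filter, 2 with DESeq2, 1 with the block and 2 to 15 with a library left out. Among the genes given with a fold change in the report and with all libraries kept, it turned for Mrpl3 (-0.068), Mrpl4 (-0.13) and Mrpl52 (-0.034) with library size alone, for Mrpl4 without a filter (-0.030) and with the block (-0.018), and for Dap3 with upper-quartile scaling (0.0057) and DESeq2 (0.0024). With a library left out, values ran from -0.24 to 0.49 for Aurkaip1, -0.27 to 0.21 for Dap3, -0.057 to 0.37 for Mrpl11, -0.062 to 0.57 for Mrpl13, -0.011 to 0.60 for Mrpl28, -0.26 to 0.23 for Mrpl4, -0.29 to 0.42 for Mrpl52, -0.26 to 0.16 for Mrps11, -0.24 to 0.016 for Mrps16, -0.20 to 0.058 for Mrps18c and -0.29 to 0.022 for Mrps7. Genes with a FAIRE peak at 25 µM numbered 3 (3.85%, all protein-coding genes 1.13%) and 9 within 10000 bases (11.54%, all protein-coding genes 4.71%). With a score of at least 60 there were 0, where the share of all protein-coding genes was 0.4%. The cause of these shifts was not tested. Other genes of the family that turned are counted here but not listed.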
